A study of Rattus norvegicus with 10 samples.

Results

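The CYP2C enzymes are a subfamily of liver cytochrome P450 that oxidise drugs, steroids, retinoids and polyunsaturated fatty acids. The members taken here were the rat genes Cyp2c6v1, Cyp2c7, Cyp2c11, Cyp2c12, Cyp2c13, Cyp2c22, Cyp2c23, Cyp2c24 and Cyp2c55, with every probe set that the platform annotation assigns to one of them. Of these 9 genes, 7 had a probe set, 1 each, so that 7 of 14217 genes and 7 of the 31042 probe sets tested were followed. No probe set was annotated to Cyp2c24 or Cyp2c55, which were not analysed here, and 0 probe sets were annotated to a CYP2C gene together with another gene. Liver RNA came from 10 samples of Harlan Sprague-Dawley rats, all female, 5 in each of 2 groups. The vehicle group received corn oil by gavage, and the other group received indole-3-carbinol (I3C) at 300 mg per kg by gavage with corn oil as vehicle. Both groups were dosed 5 days per week for 13 weeks according to the sample labels, whereas the design text speaks of a study of 2 years. The labels give neither genotype nor age and do not tie samples to animals, so that a p-value here reflects the spread between samples, which may be partly technical.

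In rat liver the CYP2C genes differ in how they are controlled. Cyp2c12 is the classical female-specific member and depends on the continuous growth hormone secretion of females, whereas Cyp2c11 and Cyp2c13 are male-specific and depend on its pulsatile secretion in males. Cyp2c6v1 is expressed in both sexes and can be induced by phenobarbital through the nuclear receptor CAR (Nr1i3). I3C is a plant indole that forms condensation products in the stomach, some of which are ligands of the aryl hydrocarbon receptor. The comparison asks whether the transcripts of these enzymes differ between dosed and vehicle livers.

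The upstream sequences of the sex-dependent members are shown because female-specific Cyp2c12 and male-specific Cyp2c13 look alike there. RefSeq promoters on assembly GRCr8 were matched by symbol for 8 of the 9 genes, all but Cyp2c6v1. The 150 bases before the annotated start are given 5′ to 3′, with TATAAA on the gene's strand and CAAAGTNCA on either strand in capitals. TATAAA is a spelling of the TATA box, and CAAAGTNCA is a spelling bound by the liver transcription factor HNF4A.
Cyp2c12 (chr1:248677035-248677184, minus strand): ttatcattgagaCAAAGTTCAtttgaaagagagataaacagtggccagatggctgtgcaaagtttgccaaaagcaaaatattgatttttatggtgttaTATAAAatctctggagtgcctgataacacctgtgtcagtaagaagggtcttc
Cyp2c13 (chr1:248787189-248787338, minus strand): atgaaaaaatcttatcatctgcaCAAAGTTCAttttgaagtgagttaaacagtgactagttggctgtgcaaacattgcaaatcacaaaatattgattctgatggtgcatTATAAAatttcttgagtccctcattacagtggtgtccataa
Cyp2c11 (chr1:246175066-246175215, plus strand): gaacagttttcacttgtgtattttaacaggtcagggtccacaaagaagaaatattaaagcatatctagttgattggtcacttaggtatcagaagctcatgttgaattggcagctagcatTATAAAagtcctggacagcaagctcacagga
Cyp2c7 (chr1:247966244-247966393, plus strand): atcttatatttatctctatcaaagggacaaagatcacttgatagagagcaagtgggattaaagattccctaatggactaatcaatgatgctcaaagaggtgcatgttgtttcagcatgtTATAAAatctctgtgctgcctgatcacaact
Over the 250 bases before the start, female-specific Cyp2c12 and male-specific Cyp2c13 were 63.1% identical in a global alignment, and male-specific Cyp2c11 was 68.6% identical to Cyp2c55 and 64.2% to Cyp2c24. Cyp2c12 and male-specific Cyp2c11 were 53.2% identical, near the median of 51.5%. Over all 28 pairs identity ran from 43.4%, for Cyp2c7 against Cyp2c23, to 68.6%. The letters CAAAGTNCA stood in 2 of the 8 promoters, Cyp2c12 at bases 138 to 130 before the start and Cyp2c13 at 127 to 119, against 1.06% of 33469 promoters in the table. TATAAA stood in 7 of the 8, against 8.06% of all promoters. In Cyp2c22 its only match lay far from the start, at bases 197 to 192, and Cyp2c7 had an extra match at 172 to 167. Cyp2c7 and the other promoters with the letters had a match within bases 52 to 24. GCGTG, the core of the xenobiotic response element to which the aryl hydrocarbon receptor binds (both strands), stood in 0 of the 8 and in 25.9% of all promoters. TTCNNNGAA, the spelling of STAT5 sites (its own reverse complement), stood in 0 of the 8 and in 7.67% of all. No match says only that these letters are not in this window, and none of the motifs overlapped.

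Cyp2c6v1 was higher in all 5 dosed arrays than in every vehicle array, by a small margin, and was the one CYP2C probe set that passed the test. Its log2 values were 14.04, 14.09, 13.95, 14.09 and 14.04 in vehicle arrays 1 to 5 and 14.26, 14.27, 14.27, 14.18 and 14.34 in I3C arrays 1 to 5. The groups did not overlap, and the lowest dosed array lay 0.09 above the highest vehicle array. The vehicle mean was 14.04 ± 0.06 and the dosed mean 14.27 ± 0.06 (SD, n = 5 each). The difference was 0.22 ± 0.06 on the log2 scale (SE, 95% interval 0.10 to 0.35), a 1.17-fold rise with a limma adjusted p of 0.0463. By the exact permutation test over all splits of the arrays the two-sided p was 0.00794, the smallest that 5 against 5 can give. This p follows from the lack of overlap, which 6.5% of all probe sets share, and is not adjusted. The name of the probe set marks probes that match several transcripts of 1 gene, and whether transcripts of other CYP2C genes also bind them was not tested.

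**Figure D1:**
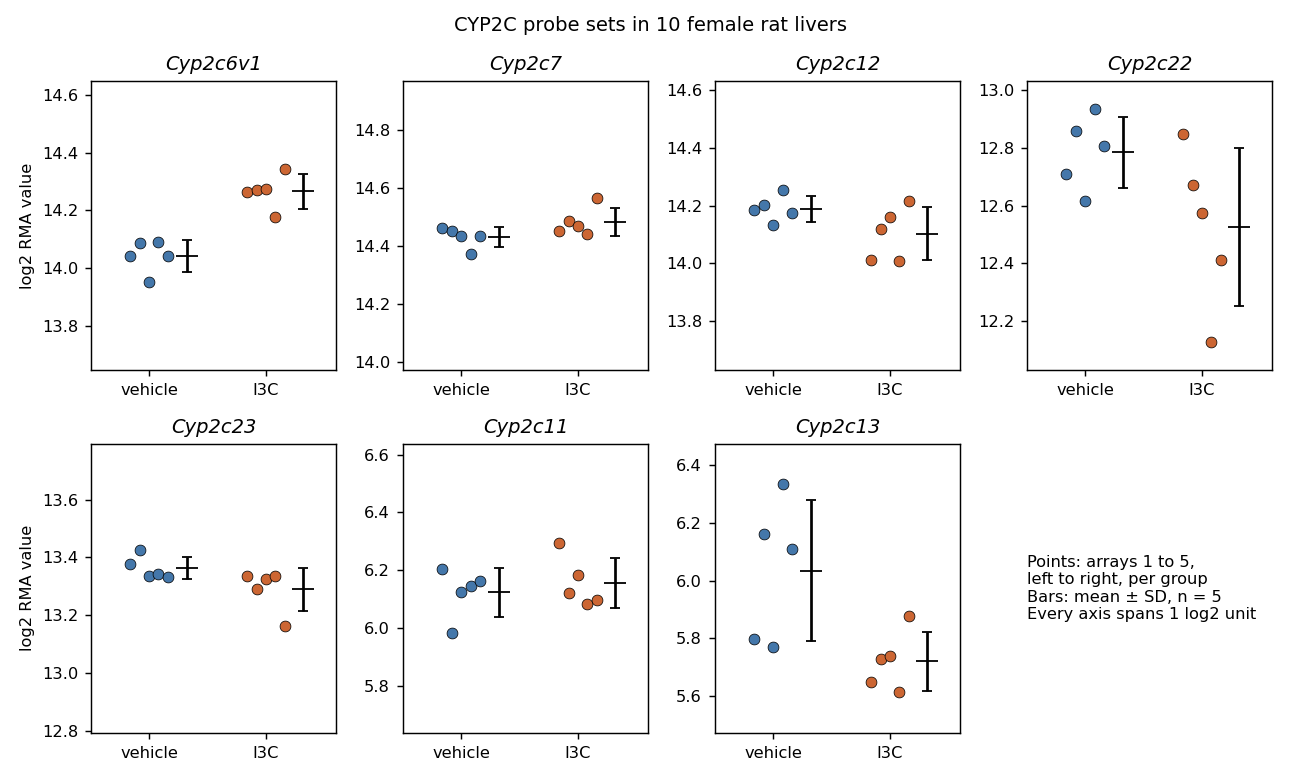
Log2 RMA values of the 7 CYP2C probe sets in 5 vehicle and 5 I3C liver arrays, with 1 point per array and bars for the mean ± SD of each group. Every vertical axis spans the same log2 range, so that the spreads can be compared by eye, and Cyp2c6v1 is the one panel in which the groups do not overlap.

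The call of Cyp2c6v1 stood close to the threshold. When each array was left out in turn the difference stayed between 0.20 and 0.25, but it was still called in 1 of the 10 cases, without vehicle 5 (adjusted p = 0.0425). Without the other arrays the adjusted p ran from 0.0513 (without I3C 4) to 0.124 (without I3C 5). A measure of RNA quality differed between the same groups, and a second leaned the same way. The second, the 3′ minus 5′ difference of the beta-actin controls, was 1.59 ± 0.12 in vehicle and 1.40 ± 0.14 in dosed arrays (SD, n = 5 each). Its exact permutation p was 0.0476, or 0.0714 adjusted over 3 array measures. The GAPDH controls were brighter at the 3′ than at the 5′ end by 0.45 ± 0.12 in vehicle arrays and by 0.23 ± 0.05 in dosed arrays (SD of the log2 difference, n = 5 each, exact permutation p = 0.00794, 0.0238 adjusted over 3 array measures). With that difference in the model Cyp2c6v1 lay at 0.24 ± 0.10 (SE, adjusted p = 0.278), about as large and no longer called. The GAPDH difference of every vehicle array (lowest 0.32) lay above that of every dosed array (highest 0.29). RNA quality and dosing therefore cannot be told apart by this model, here or where it is used below.

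**Figure D2:**
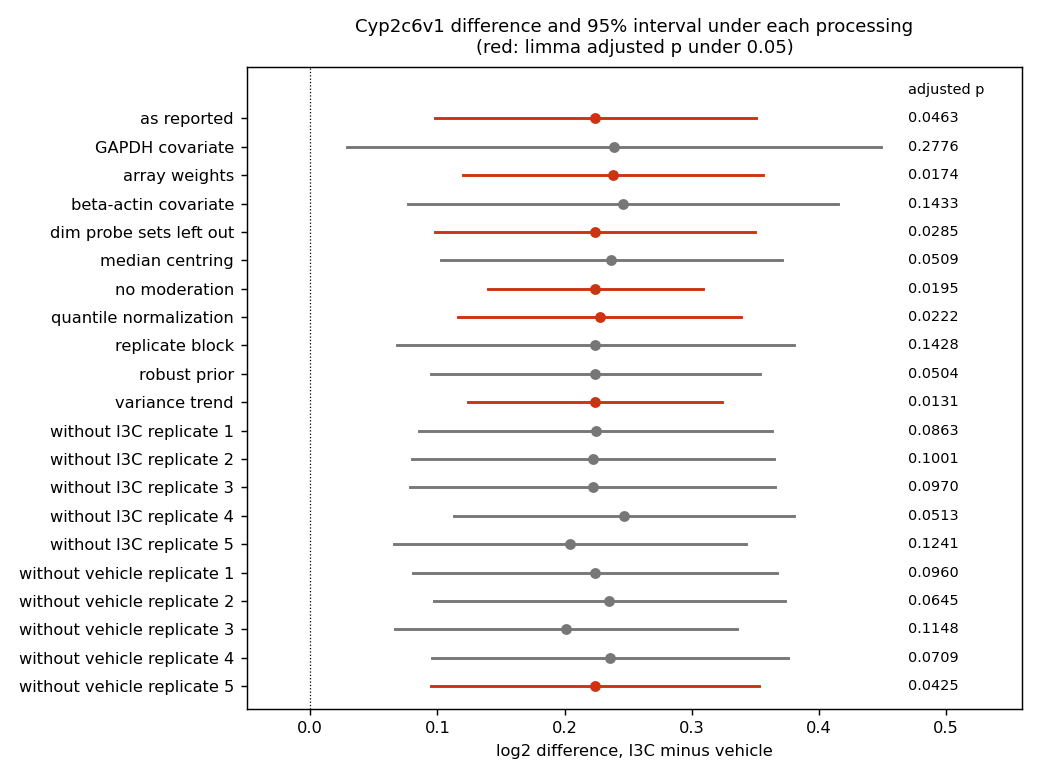
Difference of Cyp2c6v1, I3C minus vehicle, on the log2 scale with its 95% interval, as reported and under each alternative, with the limma adjusted p at the right and calls in red. The point hardly moves, between 0.20 and 0.25, and every interval lies above 0, while the adjusted p lies on both sides of the threshold.

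The remaining members did not pass. Of 7 CYP2C probe sets 1 rose and 0 fell by limma at an adjusted p under 0.05, where 4.79% of all probe sets were called, 2.49% as risen and 2.3% as fallen. Without adjustment, at a p under 0.05, 1 was higher and 2 were lower, Cyp2c13 and Cyp2c22, where 16.1% of all probe sets passed in either direction and 8.36% as lower. The groups did not overlap for 1 of the 7, against 6.5% of all probe sets. The median difference over the 7 was -0.07. The median size of the difference was 0.09, against 0.08 over all probe sets. The probe sets other than those of Cyp2c11 and Cyp2c13, 5 in number, were bright. Of the 285 probe sets at least as bright as Cyp2c22, a limit chosen after seeing the data, 14.4% were called, so 1 of 5 bright members is near that share.

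Cyp2c12, which hydroxylates steroid sulfates in females, was at 14.19, 14.20, 14.13, 14.25 and 14.17 in vehicle arrays and at 14.01, 14.12, 14.16, 14.01 and 14.22 in dosed arrays. Dosed arrays 1, 2 and 4 were lower than every vehicle array, whereas dosed arrays 3 and 5 lay within the vehicle range, and the groups overlapped. The difference of -0.09 ± 0.06 (SE, 95% interval -0.22 to 0.05, limma adjusted p = 0.591) leaves room for a fold between 0.858 and 1.03. Its male counterpart Cyp2c11, a testosterone hydroxylase, was dim in these females, at 6.20, 5.98, 6.13, 6.15 and 6.16 in vehicle and 6.29, 6.12, 6.18, 6.08 and 6.10 in dosed arrays. The groups lay on top of each other, with a difference of 0.03 ± 0.07 (SE, 95% interval -0.11 to 0.18, adjusted p = 0.897).

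Cyp2c13, the other male-specific steroid hydroxylase, was also dim, at 5.80, 6.16, 5.77, 6.33 and 6.11 in vehicle and 5.65, 5.73, 5.74, 5.61 and 5.88 in dosed arrays. Vehicle arrays 2, 4 and 5 stood above every dosed array, whereas vehicle arrays 1 and 3 lay within the dosed range. The difference was -0.31 ± 0.11 (SE, 95% interval -0.54 to -0.08, limma adjusted p = 0.135). The name of its probe set marks probes that can match transcripts of more than 1 gene, so the value may be shared within the subfamily, although the annotation names Cyp2c13 alone.

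Cyp2c22 varied most among the bright members. The RefSeq table gives Cyp2c70 as another name of it, and in mouse CYP2C70 makes muricholic acids from other bile acids. Its values were 12.71, 12.86, 12.62, 12.93 and 12.80 in vehicle and 12.85, 12.67, 12.57, 12.13 and 12.41 in dosed arrays. Dosed arrays 3, 4 and 5 were lower than every vehicle array and dosed array 1 was as high as the upper vehicle arrays. The SD was 0.27 among dosed and 0.12 among vehicle arrays (n = 5 each). The difference was -0.26 ± 0.12 (SE, 95% interval -0.51 to -0.002, limma adjusted p = 0.305). It was -0.16 without I3C 4, -0.14 with the GAPDH difference in the model and -0.09 with that of beta-actin.

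Cyp2c7, which is known to hydroxylate retinoic acid, was at 14.46, 14.45, 14.43, 14.37 and 14.43 in vehicle and at 14.45, 14.49, 14.47, 14.44 and 14.57 in dosed arrays. All 10 arrays lay close together, and the difference was 0.05 ± 0.05 (SE, 95% interval -0.07 to 0.17, limma adjusted p = 0.753). Cyp2c23, an epoxygenase of arachidonic acid, was at 13.38, 13.42, 13.34, 13.34 and 13.33 in vehicle and at 13.34, 13.29, 13.32, 13.34 and 13.16 in dosed arrays. Dosed array 5 was the lowest, and the difference was -0.04 without it. The groups overlapped barely, the highest dosed array lying just above the lowest vehicle array. The difference was -0.07 ± 0.06 (SE, 95% interval -0.20 to 0.05, limma adjusted p = 0.645). Intervals this narrow leave little room for a large change of these probe sets, but a p that misses the threshold does not show equal levels.

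The bright members lay close to the top of the measured range. The probe set of Cyp2c7 was exceeded by 12 of the 31042 probe sets, and that of albumin, the brightest, averaged 15.11. Whether the arrays respond less at such brightness was not tested. Brightness of different probe sets does not rank the amounts of their transcripts, so no order of levels among the members is given.

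Cyp2c6v1 was also set against each other member within the same array, a comparison chosen after its rise was seen and therefore given as a description with no test. Its change exceeded that of Cyp2c12 by 0.31, that of Cyp2c23 by 0.30, that of Cyp2c7 by 0.17, that of Cyp2c22 by 0.48 and that of Cyp2c13 by 0.54 on the log2 scale. In each of these 5 comparisons all dosed arrays lay above all vehicle arrays. Cyp2c6v1 alone already separated the groups, so this separation was largely built in and adds no support. Against Cyp2c11 the excess was 0.19, and the groups overlapped.

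The genes most like Cyp2c6v1 in their variation between arrays of the same group were Ssr4, Sec61a2 and Pcnt. The Pearson correlation of deviations from the group means over the 10 arrays was 0.97, 0.96 and 0.95, and these are the 3 highest of 14210 genes. Ssr4, a subunit of the translocon-associated complex of the endoplasmic reticulum, rose by 0.34 ± 0.07 (SE, limma adjusted p = 0.0111). Sec61a2, a channel subunit for protein translocation, differed by 0.004 ± 0.07 (SE, adjusted p = 0.991), and Pcnt, a centrosome protein, by -0.16 ± 0.06 (SE, adjusted p = 0.201). A likeness picked from so many genes over 10 arrays describes these arrays.

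Some drug-metabolising P450 genes outside the subfamily gave far larger differences, whereas others lay within the range of the CYP2C members. Of 15 measured genes 6 rose, 2 fell and 7 did not pass, and the median difference was 0.28, against -0.004 over 14217 genes, of which 6.43% were called, 3.32% as risen and 3.11% as fallen. Without adjustment 8 were higher and 2 lower at a p under 0.05, against 9.62% and 10.2% of those genes. Cyp1a1 rose by 8.38 ± 0.15 (SE, limma adjusted p = 5.75e-12) and Cyp1b1 by 6.23 ± 0.17 (SE), both classical targets of the aryl hydrocarbon receptor. Of the steroid-oxidising CYP3A enzymes, Cyp3a2 rose by 2.00 ± 0.25 (SE) from a low vehicle mean of 5.28, and Cyp3a9 fell by 2.12 ± 0.28 (SE). Cyp3a23-3a1 also rose, by 0.77 ± 0.16 (SE, limma adjusted p = 0.0173). Among the genes that did not pass, the drug oxidase Cyp2d2 lay at 0.015 and Cyp2b3 at -0.18. Listed but not measured were Cyp2b1, Cyp2b2, Cyp2d1, Cyp2d5, Cyp3a62 and Cyp3a73, so Cyp2b3 does not stand for the CYP2B genes. In the model with the GAPDH covariate 1 of the list fell, Cyp3a9, while Cyp2e1 lay at -0.36 (-0.33 as reported). The largest difference in size among the CYP2C probe sets was that of Cyp2c13, at -0.31, from a dim probe set (mean 5.88) that may be shared within the subfamily.

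**Figure D3:**
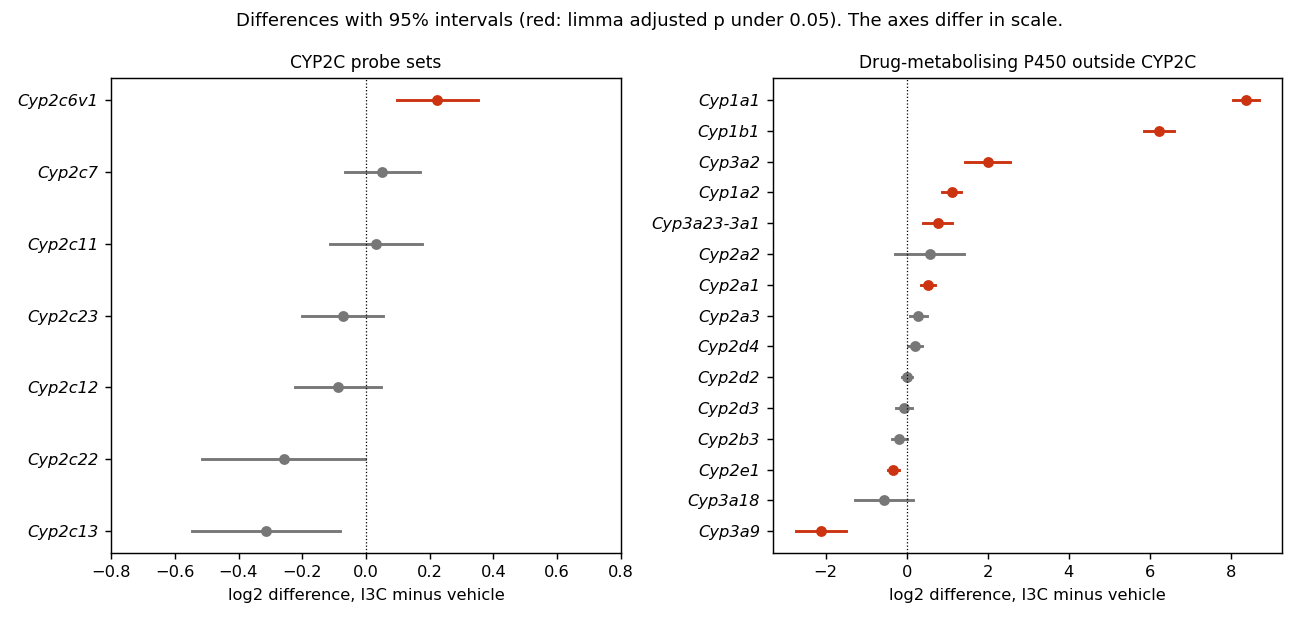
Differences of the 7 CYP2C probe sets (left) and of 15 other drug-metabolising P450 genes (right), I3C minus vehicle on the log2 scale, with 95% intervals and limma calls in red. The axes differ in scale: no CYP2C point lies farther from 0 than -0.31, while Cyp1a1 lies at 8.38.

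P450 enzymes draw electrons from shared partners of the endoplasmic reticulum. By limma 2 of 6 such genes rose and 0 fell, against 3.32% and 3.11% of all genes. Without adjustment 3 were higher and 0 lower at a p under 0.05, against 9.62% and 10.2%. Por, the reductase that passes electrons from NADPH to P450, rose from 9.61 ± 0.25 (SD, n = 5) to 10.92 ± 0.20 (SD, n = 5), by 1.32 ± 0.12 (SE, adjusted p = 7.71e-05). Cyb5a, cytochrome b5, rose by 0.42 ± 0.06 (SE, adjusted p = 0.00177). With the GAPDH difference in the model Por stayed called (adjusted p = 0.013), and Cyb5a lay at 0.36 ± 0.10 (SE, adjusted p = 0.13).

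The sex-dependent members rely on the growth hormone signal. Among genes of that signal and sex-dependent regulators, those that passed were lower. Of the genes that carry it, the receptor Ghr lay at -0.40, Jak2 at 0.16, Stat5a at -0.06 and Stat5b at 0.15. None of these passed (limma adjusted p = 0.0819, 0.273, 0.886 and 0.484). The regulators Onecut1, with the largest difference of the list at -0.87, and Trim24, at -0.60, did not pass either (limma adjusted p = 0.0817 and 0.0764). Of 13 measured genes 0 rose and 3 fell by limma. Without adjustment 1 was higher and 7 were lower at a p under 0.05, against 9.62% and 10.2% of all genes, and the median difference was -0.34. Of all genes 3.32% rose and 3.11% fell. Cish, a feedback inhibitor of cytokine signalling induced through STAT5, fell from 8.62 ± 0.24 (SD, n = 5) to 7.78 ± 0.45 (SD, n = 5), by 0.84 ± 0.19 (SE, adjusted p = 0.0218). Cux2, a female-specific repressor of male-biased genes in mouse liver, fell by 0.57 ± 0.13 (SE, adjusted p = 0.0233). Igfals, which stabilises circulating insulin-like growth factor, fell by 0.54 ± 0.11 (SE, adjusted p = 0.0148). With the GAPDH difference in the model none of the 3 was called: Cish lay at -0.65, Cux2 at -0.58 and Igfals at -0.23 (adjusted p = 0.363, 0.249 and 0.505). The number that fell was 1 without vehicle 2 or I3C 4 and 6 without I3C 3. Cish was not called without vehicle 2 or without I3C 2, 4 or 5 (limma adjusted p from 0.0536 to 0.0614), nor Cux2 without vehicle 2, 3 or 4 or I3C 1 or 4 (adjusted p from 0.0514 to 0.0647).

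Among nuclear receptors and liver transcription factors, 5 of 19 rose and 1 fell, with a median difference of -0.04. Of all genes 3.32% rose and 3.11% fell. Without adjustment 5 were higher and 7 were lower at a p under 0.05, against 9.62% and 10.2% of all genes. Nr1i3, the receptor CAR through which phenobarbital-type inducers act, rose from 6.84 ± 0.43 (SD, n = 5) to 8.16 ± 0.31 (SD, n = 5), by 1.32 ± 0.20 (SE, limma adjusted p = 0.00181). Nr0b2, a repressor without a DNA-binding domain, rose by 1.17 ± 0.16 (SE), Ahr, the aryl hydrocarbon receptor, by 1.02 ± 0.13 (SE) and Cebpb, a transcription factor of the acute phase response, by 0.69 ± 0.08 (SE). Hnf4a, named here because its motif stands in 2 of the promoters, had a vehicle mean of 12.48 ± 0.08 and a dosed mean of 12.47 ± 0.12 (SD, n = 5 each, limma adjusted p = 0.975). With the GAPDH difference in the model 1 of the list rose, Cebpb (adjusted p = 0.0382), while Nr1i3 lay at 1.18, Nr0b2 at 0.87 and Ahr at 0.65 (adjusted p = 0.13, 0.128 and 0.118). The number that fell was 2 without vehicle 5, without I3C 5 or with probe sets averaged per gene.

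**Figure D4:**
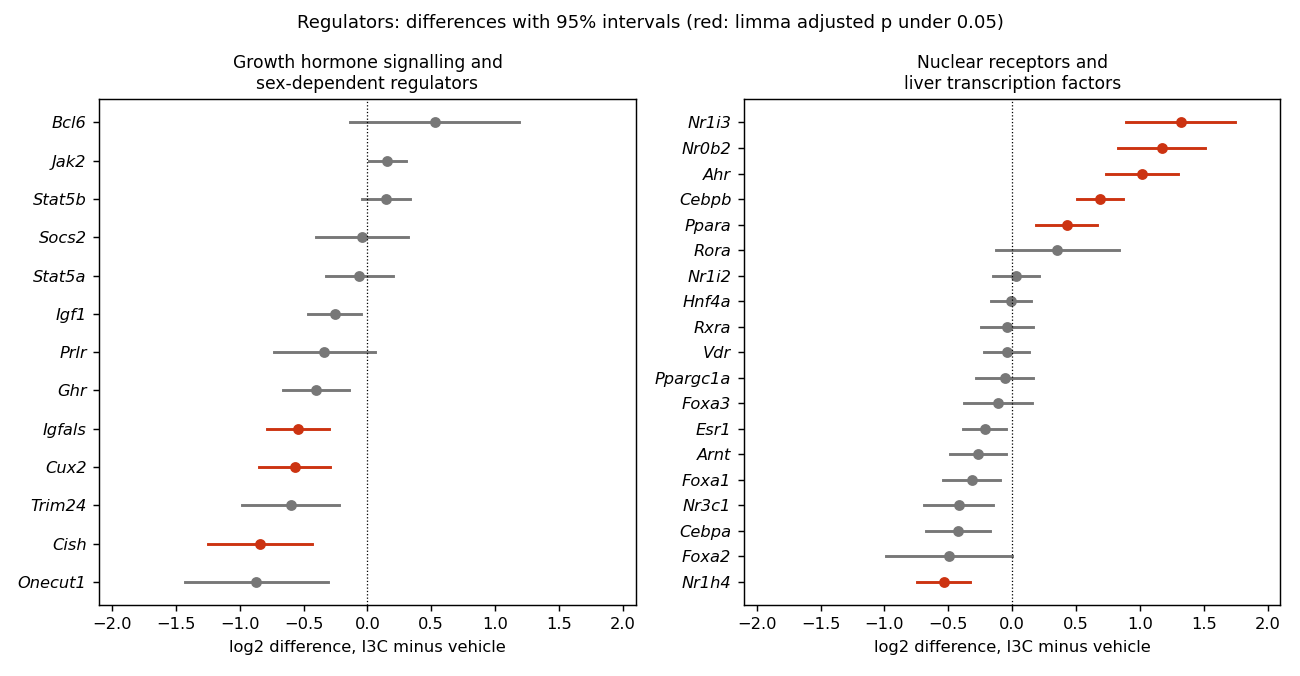
Differences of 13 growth hormone signalling genes and sex-dependent regulators (left) and 19 nuclear receptors and liver transcription factors (right), I3C minus vehicle on the log2 scale, with 95% intervals and limma calls in red. Cish, Cux2 and Igfals are the calls at the left, all below 0, and Nr1i3, Nr0b2, Ahr, Cebpb and Ppara lie above 0 at the right with Nr1h4 below.

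Sex-dependent genes outside the subfamily did not share one direction. For comparison, 3.32% of all genes rose and 3.11% fell, and without adjustment 9.62% were higher and 10.2% lower at a p under 0.05. Of 7 female-predominant genes 1 rose and 2 fell (without adjustment, 1 was higher and 3 lower at a p under 0.05), and the count of falls was 1 without vehicle 2, 3 or 4 or without I3C 1 or 4. Cyp17a1, a steroid hydroxylase, fell by 1.27 ± 0.24 (SE, limma adjusted p = 0.00778), Cux2 fell as given above, and Cyp2a1, a testosterone hydroxylase, rose by 0.52 ± 0.08 (SE, adjusted p = 0.00235). Of 7 male-predominant genes 1 rose, Cyp3a2, and 0 fell by limma (without adjustment, 1 was higher and 0 lower at a p under 0.05). Cyp3a18, at -0.56 ± 0.33 (SE, adjusted p = 0.48), and Bcl6, a repressor of female-biased genes in mouse liver, at 0.53 ± 0.30 (SE, adjusted p = 0.46), did not pass. With the GAPDH difference in the model 0 female-predominant genes were called, although Cyp17a1 lay at -1.37, Cyp2a1 at 0.54 and Cux2 at -0.58, about as large as reported. In that model Cyp3a18 lay at -1.68 (limma adjusted p = 0.0768) and Bcl6 at -0.029. Both values hang on single arrays. Vehicle 5 had the highest GAPDH difference of all arrays (0.65) and a Cyp3a18 value of 8.35, against 9.63 to 10.12 in the other vehicle arrays. Bcl6 was 8.31 in I3C 4, which had the lowest GAPDH difference (0.16), against 6.37 to 6.63 in the other dosed arrays. That these genes depend on sex rests on the list, since all rats were female.

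The pathways into which CYP2C enzymes feed were also read. Beside their counts, 3.32% of all genes rose and 3.11% fell, and without adjustment 9.62% were higher and 10.2% lower at a p under 0.05. CYP2C epoxygenases make fatty acid epoxides that epoxide hydrolases open, and of 21 genes of epoxide and other eicosanoid metabolism 1 rose and 3 fell (without adjustment, 2 were higher and 7 lower at a p under 0.05). Ephx1, the microsomal epoxide hydrolase, rose from 12.50 ± 0.24 (SD, n = 5) to 13.70 ± 0.18 (SD, n = 5), by 1.20 ± 0.12 (SE, limma adjusted p = 9.04e-05). The fallen genes were the fatty acid hydroxylases Cyp4a1 (-0.32 ± 0.08, SE), Cyp4f6 (-0.30 ± 0.08, SE) and Cyp4f1 (-0.23 ± 0.06, SE). Each of these 3 calls ended in 8 of the 10 fits that leave out an array, so that 0 or 1 fell without vehicle 1, 3 or 4 or any of the I3C arrays, and with the GAPDH covariate 0 fell, Cyp4a1 lying at -0.21, Cyp4f6 at -0.20 and Cyp4f1 at -0.12. Of 14 genes of retinoic acid metabolism 1 rose and 1 fell (without adjustment, 1 was higher and 4 lower at a p under 0.05): Aldh1a1, which makes retinoic acid, rose by 0.80 ± 0.17 (SE, adjusted p = 0.0154), and Lrat, which esterifies retinol, fell by 0.51 ± 0.10 (SE, adjusted p = 0.00889). Under the GAPDH covariate Aldh1a1 lay at 0.36 ± 0.24 (SE, adjusted p = 0.495), smaller than reported, and Lrat at -0.53 ± 0.16 (SE, adjusted p = 0.164), as large as reported with a wider error.

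The RNA came from whole liver, where fewer cells of a type and less RNA per cell cannot be told apart. Beside the counts below, 3.32% of all genes rose and 3.11% fell, and without adjustment 9.62% were higher and 10.2% lower at a p under 0.05. Markers of the tissue were bright, with Alb at 15.11 in both groups. Of 6 hepatocyte markers 1 rose, Apoa1 (0.38 in difference), and 0 fell (without adjustment, 1 was higher and 1 lower at a p under 0.05). The mean over the hepatocyte markers ranged from 14.27 to 14.34 in vehicle and from 14.28 to 14.35 in dosed arrays. Of 5 Kupffer cell markers 0 rose and 1 fell, Cd5l (-0.52), while without adjustment 0 were higher and 4 lower at a p under 0.05. Their median difference was -0.35, and their mean ranged from 9.38 to 9.79 in vehicle and from 8.81 to 9.28 in dosed arrays. Pericentral hepatocyte genes, of the zone where many P450 enzymes are made, counted 2 falls among 6, Glul (-0.98) and Cyp2e1 (-0.33), and 0 rises. At an unadjusted p under 0.05, 1 of them was higher, Slc1a2 (0.26), and 2 were lower. Periportal genes counted 3 falls among 6, Hal (-1.10), Gls2 (-0.87) and Uroc1 (-0.80), and 0 rises. At an unadjusted p under 0.05, 1 of these was higher, Sds (0.55), and 4 were lower. Of 7 stellate cell markers 1 fell, Lrat (without adjustment, 0 were higher and 2 lower at a p under 0.05). Of 5 endothelial, 4 cholangiocyte and 5 lymphocyte markers 0 passed limma (without adjustment, 0 were higher and 1 lower at a p under 0.05). The call of Cd5l ended without vehicle 1, 2 or 4 or I3C 1, 4 or 5 (limma adjusted p from 0.0515 to 0.0677). The number of Kupffer cell markers that fell was 2 without vehicle 3 or 5 and 3 with probe sets averaged per gene. Hal missed the threshold without vehicle 1 (limma adjusted p = 0.0547) or vehicle 3 (0.0517). With the GAPDH difference in the model 0 hepatocyte markers rose and 0 Kupffer cell, stellate cell or pericentral markers fell, but the differences stayed about as large or grew. Apoa1 lay at 0.42, Cd5l at -0.69, Lrat at -0.53, Glul at -0.85 and Cyp2e1 at -0.36. The part of these markers in the CYP2C values was not tested.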

How the data were processed

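The deposited values are on the log2 scale and were produced by RMA, per the submitters' processing notes. No version of RMA is given in the sources used here. The method equalises the distributions of the arrays and can compress folds. The array medians ran from 6.21 to 6.29 and correlations between arrays from 0.983 to 0.997, so no array copied another. Of 31099 probe sets 57 are controls. Symbols came from the platform annotation, updated by Entrez ID through RefSeq (GRCr8, names only), and a gene outside CYP2C was followed through its brightest probe set. The test was limma (3.58.1, under R 4.3.3) with lmFit and eBayes without trend, two-sided, adjusted by Benjamini-Hochberg over 31042 probe sets, threshold 0.05. "Rose" and "fell" mean past that threshold. Precision is limited by having 5 arrays per group. In simulated data for this comparison, 67, 67 and 66 of 31042 probe sets were changed by 0.25, 1 and 2 on the log2 scale. The fit recovered 7.46%, 97.0% and 100% of these, with 8 false calls among 31042. In the real data 1487 probe sets were called, far more than were changed in the simulation. The Benjamini-Hochberg cutoff depends on how many probe sets change, so these shares do not give the recovery in the real data. Promoters were aligned globally with Biopython 1.88 (match 1, mismatch -1, gap open -2, extension -0.5).

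The members and gene lists were chosen with earlier results of these data known. Named genes are every member, up to 4 called genes of a list by size (the 2 brightest where fewer than 2 passed), and the 3 genes most like a called member. Exceptions are Hnf4a, Ppara, Nr1h4, Cyp2d2, Cyp2b3, Cyp3a23-3a1, Ghr, Jak2, Stat5a, Stat5b, Onecut1, Trim24, Slc1a2 and Sds, singled out after their values were seen. Alternatives were other variance models, a replicate block, leaving out dim probe sets, renewed scaling, array weights, RNA quality covariates, a stricter threshold, probe sets averaged per gene and leaving out each array.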

Additional observations from a re-analysis of the deposited data

Results flagged for a closer look

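In 7 of 98 groups of 5 arrays examined, 1 array stood far from the other 4, where chance flags about 1 in 20 groups. For Cyp2c23 this was I3C 5, at 13.16 against 13.29 to 13.34 in the other dosed arrays. The other cases concern genes outside the subfamily. Cyp2a1 was 13.08 in I3C 3, Cyp4f1 was 12.62 in I3C 4, Bcl6 was 8.31 in I3C 4 against 6.37 to 6.63 in the others, and Hal was 9.85 in I3C 1. Among vehicle arrays Cyp17a1 was 9.54 in vehicle 4, and Cyp3a18 was 8.35 in vehicle 5 against 9.63 to 10.12 in the others.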

How the results depend on the processing

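The number of CYP2C probe sets that rose was 1 as reported and 0 with the replicate block, the robust prior, median centring, the GAPDH covariate, the beta-actin covariate or a threshold of 0.01. It stayed at 1 under the other 5 alternatives and was 0 to 1 when single arrays were left out. The difference of Cyp2c6v1 stayed at 0.22 to 0.25 under the alternatives that kept all arrays, with adjusted p of 0.143 under the replicate block, 0.0504 with the robust prior, 0.0509 after median centring and 0.143 with the beta-actin covariate. The number that fell was 0 throughout. The sign of Cyp2c11 turned without vehicle 2 (-0.0040) and without I3C 1 (-0.0027), with a range of -0.0040 to 0.052 when single arrays were left out, and it ran from 0.017 with array weights to 0.11 with the GAPDH covariate. The other 6 kept their sign under every alternative. By over 1.5 times, but without a call, moved Cyp2c22 (-0.26) to -0.16 without I3C 4, -0.14 with the GAPDH and -0.09 with the beta-actin covariate. So did Cyp2c23 (-0.07) to -0.04 without I3C 5 and -0.13 with the GAPDH covariate, Cyp2c7 (0.05) to 0.03 without I3C 5, and Cyp2c12 (-0.09) to -0.04 with the beta-actin covariate. All probe sets called numbered 1487 as reported, 355 with the GAPDH covariate, 752 with the beta-actin covariate, 896 without moderation and 646 at 0.01. They numbered 1032 with the replicate block, and 1035 to 2085 when single arrays were left out. The causes were not tested, except that the stricter threshold calls fewer by construction. Samples with the same replicate number did not deviate together (correlations -0.28 to 0.22), and 2 of 10 arrays correlated best with their own number, so the block shares only a number. Of 384 counts of gene lists under alternatives 168 were of lists at 0 as reported, which stayed at 0. Of the other 216, 41 moved by over 1.5 times. A difference of 0.22 in either direction, the size seen for Cyp2c6v1, lies outside the 95% intervals of Cyp2c7, Cyp2c11, Cyp2c23 and, only just, Cyp2c12. A fall of that size lies within those of Cyp2c13 and Cyp2c22.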
